A study of Mus musculus with 4 samples.

Results

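The Hox genes of the 4 mouse clusters were represented by 36 probe sets, 1 for each of 36 genes and 9 in each cluster, among 34760 probe sets on the array. A probe set was taken as a member where the only gene symbol given for it was that of a Hoxa, Hoxb, Hoxc or Hoxd gene. The arrays, Affymetrix Mouse Gene 1.0 ST, were 4 in number (replicates 1 to 4), and all hold bone marrow pro-B cells of wild-type C57BL/6 mice. The cells were isolated as B220-low c-Kit+ cells with no further treatment named. The arrays form 1 group, so levels and their spread could be described and no conditions could be compared. Sorted populations were reported as highly pure by flow cytometry, with no value for each array. The sources used here do not give the age of these mice or how many stand behind an array, and part of the spread between arrays may be technical.

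All 9 measured markers of early B cells lay above the background line of the arrays (the 95th percentile of silent receptor genes), including Pax5, Ebf1, Cd79a and Vpreb1, with a median log2 margin of 4.23 over the line. Markers of other blood cells passed it too: 8 of 8 of granulocytes and monocytes (median margin 4.85) and 6 of 6 of erythroid cells (2.90). So did 6 of 6 of T and NK cells (0.67) and 5 of 7 of stem and progenitor cells (0.79). Megakaryocyte markers passed in 4 of 4 cases (1.97), and mast cell and basophil markers in 2 of 4 (1.34). Of stromal and endothelial markers, 5 of 8 passed (0.68). Over all probe sets with 1 gene symbol 63.5% passed, with a median margin of 0.96, so passing the line does not by itself single out a cell type. Mpo, a granule enzyme of myeloid cells, was measured at 13.62 to 13.96 on the log2 scale. In such bulk samples, fewer cells of a type and less RNA per cell cannot be told apart, and which cells a Hox signal came from was not tested. Replicate 3 stood apart in sex-linked RNA, with Xist at 5.48 on that array and at 13.04 to 13.17 on the other 3. Eif2s3y was at 10.05 on replicate 3 and at 4.62 to 5.17 on the others. Replicate 3 thus did not hold the same material as the other arrays.

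Hox genes encode homeodomain transcription factors and lie in 4 clusters, in which the order of the genes along the chromosome follows the order of their domains along the body axis. Genes with the same number in different clusters are paralogues, from the anterior groups at the 3′ end of a cluster to the posterior groups at its 5′ end. In blood formation, genes of the Hoxa and Hoxb clusters are known from stem and progenitor cells and are switched down as cells mature, while Hox proteins bind DNA together with partners of the TALE class such as Meis and Pbx proteins. Trithorax proteins keep Hox genes active and Polycomb proteins keep them silent.

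Of the 36 Hox genes, 9 (25.0%) lay above the background line on all 4 arrays, 2 on 3 arrays and 25 on none. The 9 genes were Hoxa4, Hoxa6, Hoxa7, Hoxb1, Hoxb2, Hoxb3, Hoxb4, Hoxb9 and Hoxd11. Receptor genes for smell, pheromones and taste (1248 probe sets), which were taken to be silent in these cells, served as the background set. Their 95th percentile on an array was its background line and lay between 6.53 and 6.62. By the same rule 60.0% of all probe sets and 63.5% of the probe sets with 1 gene symbol were above background, so the share of Hox genes was below that of all genes. Receptor probe sets themselves passed in 45 of 1248 cases (3.61%). The median margin, the mean log2 value minus the line, was -0.31 over the 36 Hox genes and 0.96 over all probe sets with 1 symbol.

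**Figure D1:**
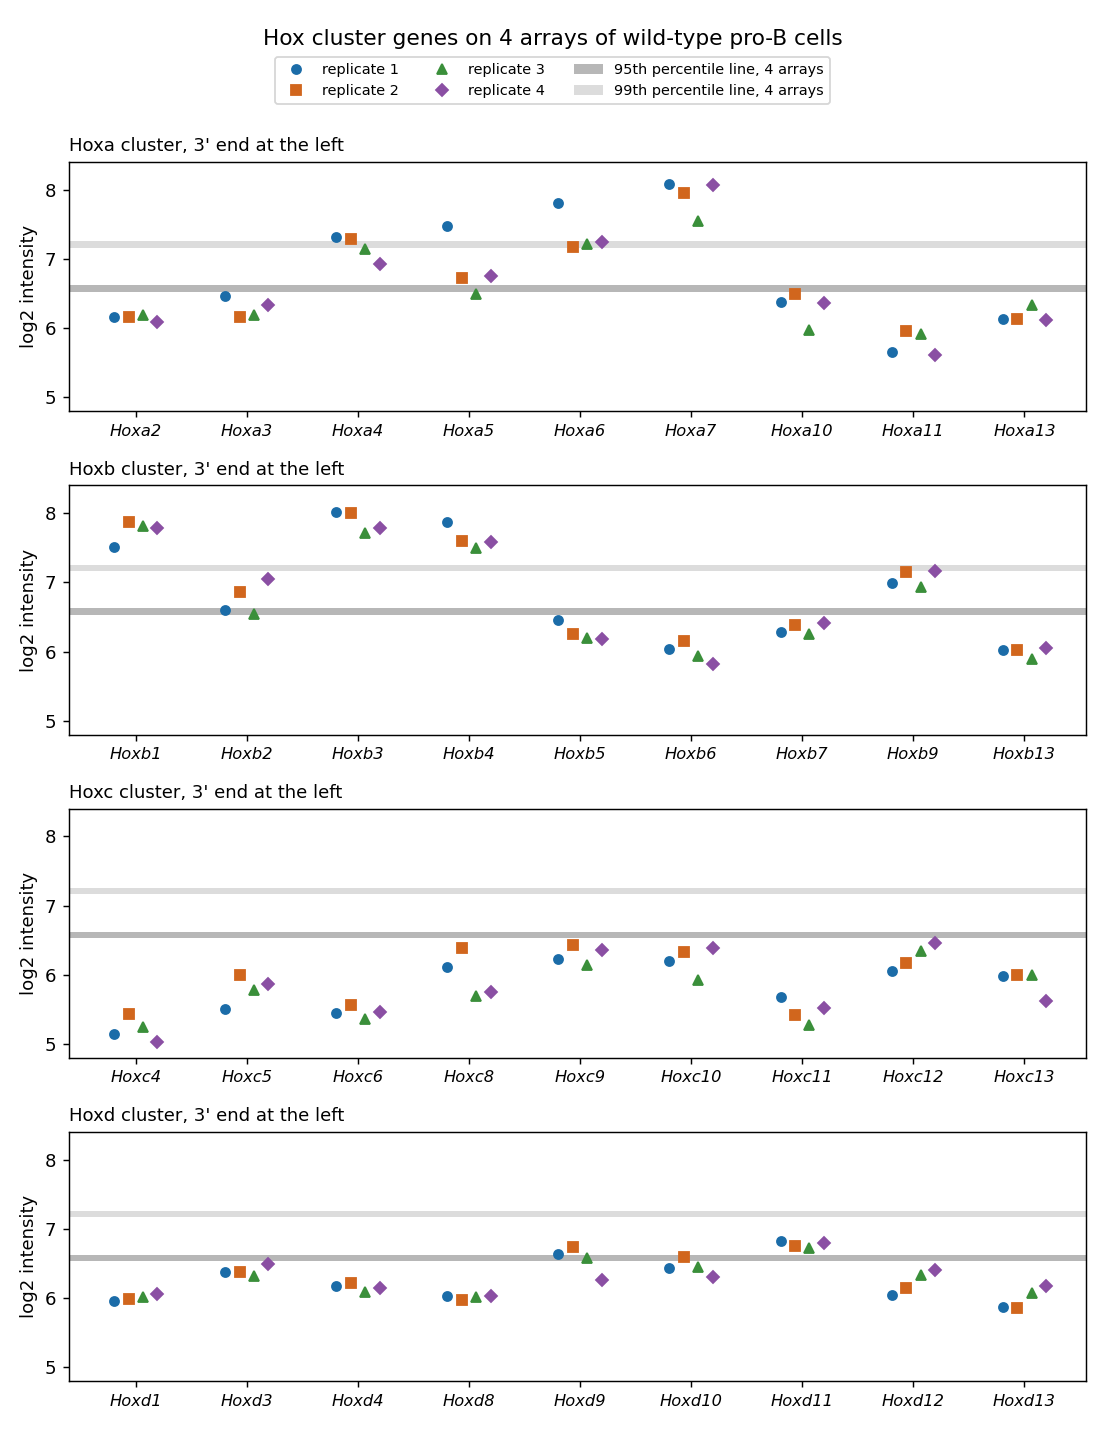
Log2 intensity (y axis) of each Hox gene on the 4 arrays (x axis, genes in chromosomal order from the 3′ end of each cluster), 1 marker per replicate, with grey bands for the range over the arrays of the 95th and 99th percentile lines of receptor genes. The points of Hoxa4, Hoxa6, Hoxa7, Hoxb1 to Hoxb4, Hoxb9 and Hoxd11 lie above the lower band's line of their own array, whereas no Hoxc point does.

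Where the line was drawn decided how many Hox genes counted as above background. With the 99th percentile of the receptor genes (7.17 to 7.26), 4 Hox genes were above on all arrays, Hoxa7, Hoxb1, Hoxb3 and Hoxb4, against 52.0% of all probe sets with 1 symbol. With the median of each array (7.31 to 7.35) the same 4 genes were above, against 50.5%. A one-sided limma test of the margin over the 95th percentile line called 8 Hox genes at an adjusted p under 0.05, all but Hoxb2 of the 9, against 63.3% of all probe sets with 1 symbol. With a line from other tissue-restricted genes, the keratin-associated, defensin and crystallin genes (8.07 to 8.17), 0 Hox genes were above on all arrays, against 40.7% of all probe sets with 1 symbol. A line from homeobox genes outside the Hox clusters (7.72 to 7.78) also left 0 of 36, against 45.2%. The mean margins over it were 0.17 for Hoxa7 and 0.13 for Hoxb3. That set was chosen after the data were seen and is not a silent background. It holds Hhex and Hlx, known in blood cells, with mean margins of 2.73 and 1.62 over the 95th percentile line of the receptor genes.

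The clusters differed in their counts. Above the line on all arrays were 3 of 9 Hoxa genes, 5 of 9 Hoxb genes, 0 of 9 Hoxc genes and 1 of 9 Hoxd genes. By position, 3 of 7 anterior genes (groups 1 to 3), 4 of 14 central genes (groups 4 to 8) and 2 of 15 posterior genes (groups 9 to 13) were above. Over all probe sets with 1 symbol the share was 63.5%, higher than in any cluster (Hoxb 55.6%) or position class (anterior 42.9%). Neighbouring genes of a cluster are not independent, and these counts were not tested against each other.

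**Figure D2:**
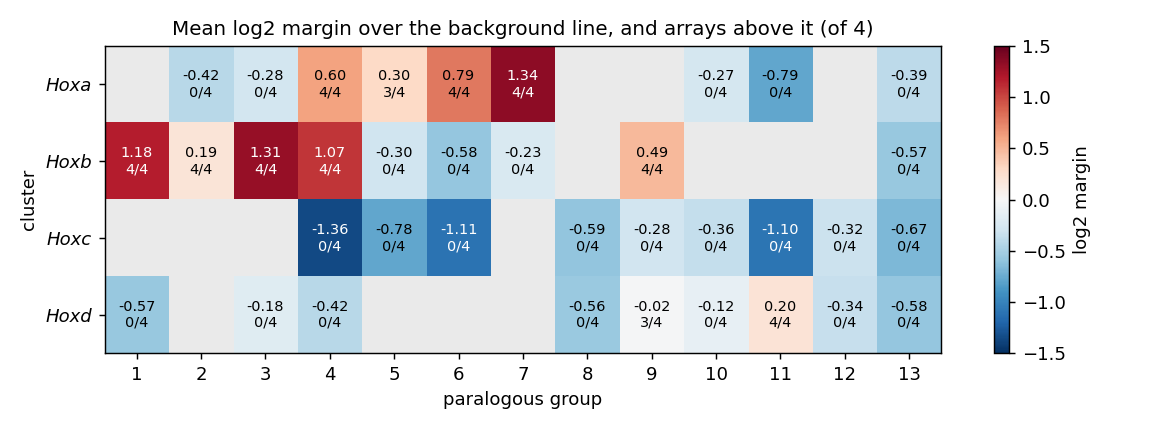
Mean log2 margin of each Hox gene over the background line of its array (colour and upper figure, n = 4 arrays) by cluster (rows) and paralogous group (columns), with the number of arrays above the line below it; grey cells hold no gene described here. Positive cells lie at Hoxb1 to Hoxb4, Hoxa4 to Hoxa7 (Hoxa5 on 3 arrays), Hoxb9 and Hoxd11, and every Hoxc cell is negative.

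In the Hoxb cluster the genes above the line formed an unbroken run at the 3′ end, Hoxb1 to Hoxb4, with Hoxb9 apart from them. Hoxb3, whose forced expression disturbs lymphoid development in mice, was measured at 8.02, 8.003, 7.72 and 7.78 on replicates 1 to 4 and averaged 7.88 ± 0.15 (SD, n = 4). Hoxb4, known for expanding haematopoietic stem cells when overexpressed, was measured at 7.87, 7.60, 7.49 and 7.59, a mean of 7.64 ± 0.16 (SD, n = 4). All 8 of these values lay above the 99th percentile line of their array, and the margins over the 95th percentile line averaged 1.31 for Hoxb3 and 1.07 for Hoxb4, with adjusted p of 2.27e-06 and 1.25e-05 in limma's one-sided test.

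Hoxb1, a gene of hindbrain patterning, was measured at 7.51, 7.87, 7.81 and 7.79 and averaged 7.75 ± 0.16 (SD, n = 4). Replicate 1 was its lowest array, which for Hoxb4 was the highest. Hoxb2, also a hindbrain gene, lay close to the line, at 6.59, 6.86, 6.55 and 7.05 on replicates 1 to 4. Its smallest margin was 0.01 on replicate 3, and with an adjusted p of 0.0599 in limma's one-sided test it did not pass.

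Hoxb9, a gene of rib and mammary gland patterning, was the posterior Hoxb gene above the line, at 6.99, 7.15, 6.93 and 7.16 (mean margin 0.49, adjusted p of 0.000166 in limma's one-sided test). None of its 4 values passed the 99th percentile line. Between this gene and Hoxb4, the genes Hoxb5, Hoxb6 and Hoxb7 lay below the line on every array, with values of 5.82 to 6.46. A probe set that Hoxb8 and Hoxb7 share was measured at 5.63 to 6.32, and Hoxb13, at the far 5′ end, at 5.89 to 6.05. From the 3′ end, the cluster thus held 4 genes above the line, then genes below it, then Hoxb9.

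In the Hoxa cluster the genes above the line on all arrays were the central genes Hoxa4, Hoxa6 and Hoxa7, and Hoxa2 and Hoxa3 at the 3′ end were below it. Hoxa7, which with its paralogues patterns the vertebral column and is a target of Mll fusion proteins in leukaemia, was measured at 8.08, 7.95, 7.55 and 8.07 and averaged 7.91 ± 0.25 (SD, n = 4). Its mean margin of 1.34 was the highest of the 36 genes, with an adjusted p of 9.42e-06 in limma's one-sided test. The array lowest for Hoxa7 was replicate 3, which still exceeded the 99th percentile line.

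Hoxa6, a gene of axial patterning, was measured at 7.82 on replicate 1 and at 7.17, 7.23 and 7.25 on replicates 2 to 4 (mean 7.37 ± 0.30, SD, n = 4). Hoxa4, which patterns the neck vertebrae, was measured at 7.32, 7.28, 7.15 and 6.92 (mean 7.17 ± 0.18, SD, n = 4). All values of both genes exceeded the 95th percentile line, with mean margins of 0.79 and 0.60, and limma's one-sided test gave adjusted p of 0.000654 for Hoxa6 and 0.000356 for Hoxa4. Against the 99th percentile line, Hoxa6 was above on 3 arrays and Hoxa4 on 2.

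Hoxa5, a regulator of lung and respiratory tract development that lies between Hoxa4 and Hoxa6, was measured at 7.49, 6.73, 6.50 and 6.76 on replicates 1 to 4. It passed the line on 3 arrays and missed it by 0.04 on replicate 3, and its SD of 0.43 was the highest of the 36 genes. With an adjusted p of 0.0985 it was not called by limma's one-sided test. Hoxa2, Hoxa3, Hoxa10, Hoxa11 and Hoxa13 were below the line on every array, with values of 5.61 to 6.50, and a non-coding RNA gene at the 5′ end of the cluster, Hottip, was likewise below it (5.72 to 5.81).

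In the Hoxd cluster 1 gene passed the line. Hoxd11, which patterns the forearm and the kidney together with its Hoxa paralogue, was measured at 6.82, 6.75, 6.73 and 6.79, a mean of 6.77 ± 0.04 (SD, n = 4). The margin was small, 0.20 on average, and steady over the arrays, with an adjusted p of 0.012 in limma's one-sided test. Hoxd9 was measured at 6.63, 6.74, 6.58 and 6.25, above the line on replicates 1 to 3 and below it on replicate 4, with an adjusted p of 0.897. Hoxd10, between these 2 genes, came within 0.03 of the line on replicate 2 and lay below it on every array. The other 6 Hoxd genes, Hoxd1, Hoxd3, Hoxd4, Hoxd8, Hoxd12 and Hoxd13, spanned 5.85 to 6.49. Of the non-coding genes of this cluster, a probe set of Hoxd3os1 was above the line on 3 arrays (6.71, 6.88, 6.39 and 6.76). Another probe set of Hoxd3os1 (6.01 to 6.21) and that of Haglr (4.68 to 5.39) were below it on every array.

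The Hoxc cluster held no gene above the line on any array. Its 9 genes, Hoxc4, Hoxc5, Hoxc6, Hoxc8, Hoxc9, Hoxc10, Hoxc11, Hoxc12 and Hoxc13, spanned 5.03 to 6.45, and their median margin was -0.67. The 3 lowest mean margins of all 36 Hox genes were those of Hoxc4 (-1.36), Hoxc6 (-1.11) and Hoxc11 (-1.10). Being below the line does not show that a gene is silent. Hoxc4 lay above 60.34% of the silent receptor probe sets and Hoxc9 above 91.67% of them, by mean value. Receptor probe sets also lay above every Hox gene that passed the line, from 2 above Hoxa7 to 41 above Hoxb2, with 18 above Hoxb9.

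Within paralogous groups the cluster of the member above the line differed from group to group. In group 4, Hoxb4 and Hoxa4 were above the line on 4 arrays, whereas Hoxc4 and Hoxd4 were above it on none. Groups 1, 2 and 3 each had their Hoxb member above the line and no other member, whereas in groups 6 and 7 the Hoxa member was above and the Hoxb member was above on no array. In group 11 Hoxd11 was above and Hoxa11 and Hoxc11 were not. No gene of groups 8, 10, 12 or 13 passed on any array.

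The spread of the Hox genes above background over the arrays is given as a description. Their median SD was 0.16, with a range of 0.04 to 0.30, against 0.11 over the 13747 probe sets with 1 symbol above background. Replicate 3 was the lowest array for 6 of the 9 genes and for 17 of all 36 Hox genes, and the highest for 0 of the 9 and 3 of the 36. Without replicate 3, 10 Hox genes were above the line, Hoxa5 in addition to the 9. Replicate 1 was the highest array for 6 of the 9 genes.

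The neighbours Hoxa4, Hoxa5, Hoxa6 and Hoxa7 were all higher on replicate 1 than the mean of the other arrays, by a median of 0.41, and all lower on replicate 3, with a median of -0.34 and a range of -0.49 to -0.02. On replicate 2 they split 2 higher to 2 lower and on replicate 4 they split 1 higher to 3 lower, with Hoxa7 at 0.21 and Hoxa4 at -0.33. For Hoxa5 the difference on replicate 1 was 0.82 and for Hoxa6 it was 0.60. The run from Hoxb1 to Hoxb4 had medians of -0.02 on replicate 1 and -0.21 on replicate 3, with Hoxb4 higher and Hoxb1 lower on replicate 1. Meis1, the partner of Hox proteins in stem cells, was also lowest on replicate 3, at 7.87 against 8.23 to 8.41 on the other arrays.

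Marker lists of several cell types moved with the arrays as well. On replicate 1 the 9 early B markers differed by a median of 0.92 from the average of the rest and the 6 erythroid markers by -1.48 (8 of 9 higher and 6 of 6 lower), while the 5 stem and progenitor markers above background differed by 0.11. On replicate 3 the medians were 0.11, 0.46 and -0.05 for these 3 lists. The median over all probe sets above background with 1 symbol was 0.01 on both arrays. The part of cell composition, and of the sex-linked difference of replicate 3, in the Hox values was not tested.

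**Figure D3:**
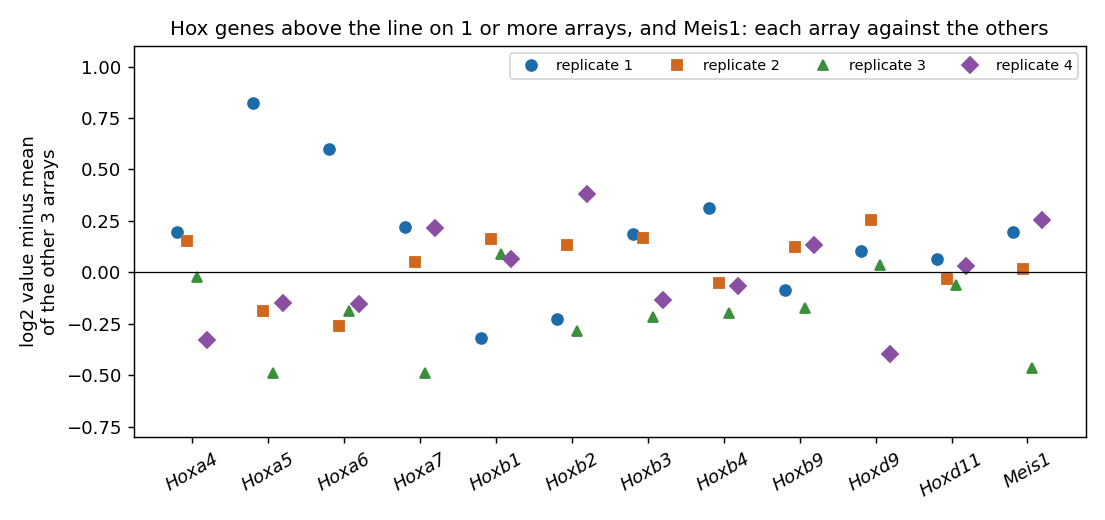
Log2 value on each array minus the mean of the other 3 arrays (y axis) for the Hox genes above the background line on at least 1 array and for Meis1 (x axis), 1 marker per replicate. Replicate 1 stands high for Hoxa5 (0.82) and Hoxa6 (0.60), and replicate 3 stands low for Hoxa5, Hoxa7 and Meis1.

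Promoter sequences show the cluster genes at the level of DNA. The RefSeq promoter table (GRCm38.p6) held 22 windows for 20 of the 36 genes, each read here as the 250 bases before a transcript start. The windows had a median GC content of 59.2% and a median of 13 CpG dinucleotides, against 52.4% and 6 over 32851 windows of all genes. The 6 windows of 5 genes above the line had a median GC content of 58.6%, and the 14 windows of 13 genes above it on no array had 57.4%. The window of Hoxb1 is shown because its gene was above the line and it holds motif matches, those of Hoxa7 and Hoxb4 as the other genes above the 99th percentile line with a window, and that of Hoxc4 as the gene with the lowest margin. Capitals mark matches, on either strand, to the motifs searched, which were TATAAA as a TATA box, CCAAT as a CCAAT box, TGATNNAT as a site of Pbx with Hox and TGACAG as a site of Meis.
Hoxb1 (chr11:96365508-96365757, plus strand, 250 bases before the start): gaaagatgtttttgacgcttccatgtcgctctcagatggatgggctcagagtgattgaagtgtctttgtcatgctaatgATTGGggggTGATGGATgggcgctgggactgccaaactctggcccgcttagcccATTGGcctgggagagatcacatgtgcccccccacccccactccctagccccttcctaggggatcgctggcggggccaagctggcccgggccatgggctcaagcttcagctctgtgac
Hoxa7 (chr6:52218574-52218823, minus strand, 250 bases before the start): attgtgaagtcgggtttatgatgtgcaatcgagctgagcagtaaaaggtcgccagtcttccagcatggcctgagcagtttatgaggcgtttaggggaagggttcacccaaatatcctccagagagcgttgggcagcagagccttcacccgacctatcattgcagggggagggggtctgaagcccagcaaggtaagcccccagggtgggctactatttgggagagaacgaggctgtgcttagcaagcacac
Hoxb4 (chr11:96318017-96318266, plus strand, 250 bases before the start): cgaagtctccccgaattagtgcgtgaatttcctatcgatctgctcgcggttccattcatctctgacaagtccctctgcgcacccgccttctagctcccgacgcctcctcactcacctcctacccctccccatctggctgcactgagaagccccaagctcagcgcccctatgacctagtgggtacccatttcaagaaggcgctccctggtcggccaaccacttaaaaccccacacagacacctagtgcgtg
Hoxc4 (chr15:103034145-103034394, plus strand, 250 bases before the start): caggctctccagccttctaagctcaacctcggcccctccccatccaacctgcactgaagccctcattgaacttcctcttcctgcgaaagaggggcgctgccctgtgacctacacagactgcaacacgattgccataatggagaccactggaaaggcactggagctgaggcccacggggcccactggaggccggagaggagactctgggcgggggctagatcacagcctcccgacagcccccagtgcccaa

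In the Hoxb1 window CCAAT was matched on its reverse strand (ATTGG) on both sides of the match to TGATNNAT, and the other 3 printed windows held none of the 4 motifs. CCAAT was present in 13 of 22 Hox windows (59.1%) against 33.8% of all windows, and TGATNNAT in 3 of 22 (13.6%) against 7.68%. TATAAA was found in 3 of 22 windows (13.6%) against 12.4%, and TGACAG in 2 of 22 (9.09%) against 15.9%. Among genes above the line on all arrays CCAAT was present in 2 of 6 windows, and among genes above it on no array in 10 of 14. A match is a description of the letters and not evidence of a bound factor.

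The Hox clusters also hold microRNA genes, for which the array had probe sets. They are shown as mature RNAs from RefSeq (GRCm38.p6) because they lie in or beside the Hox genes described, with the seed, bases 2 to 8, in capitals.
mmu-miR-10a-5p (chr11:96317186-96317208, plus strand, inside Hoxb3): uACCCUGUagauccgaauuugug
mmu-miR-10b-5p (chr2:74726074-74726096, plus strand, inside Hoxd3 and Hoxd4): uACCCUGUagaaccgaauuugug
mmu-miR-196a-5p (chr11:96265187-96265208, plus strand, and chr15:102973365-102973386, plus strand): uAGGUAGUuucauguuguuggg
mmu-miR-196b-5p (chr6:52230129-52230150, minus strand): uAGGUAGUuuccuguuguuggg
mmu-miR-615-3p (chr15:103014969-103014990, plus strand, inside Hoxc5): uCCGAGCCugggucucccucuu

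The miR-10 RNAs share 1 seed and the miR-196 RNAs share another, and both families are known to target Hox messages. None of their 5 probe sets passed the line on any array, with values of 3.28 to 6.46. The probe set of Mir10a was measured at 3.72 to 4.47 while the gene that contains it, Hoxb3, was at 7.72 to 8.02. Mir615, in contrast, was above the line on all 4 arrays at 7.93, 7.80, 7.80 and 7.78, while its host Hoxc5 lay at 5.50 to 6.00. The array's labelling was made for long RNA, and the probe sequences behind these probe sets were not analysed here.

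Of 17 measured neighbours of the clusters, these microRNA genes included, 9 (52.9%) were above the line, beside 63.5% of all probe sets with 1 symbol. Evx2, the homeobox gene next to Hoxd13, was measured at 7.42, 7.32, 7.38 and 7.38 and was above on all arrays, and Evx1, next to Hoxa13, was above on none (6.22 to 6.41). Skap2, at the other end of the Hoxa cluster, was at 10.12 to 10.38, and Skap1, beyond Hoxb1, at 6.68 to 7.04, both above the line on 4 arrays.

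The TALE class, to which the partners of Hox proteins in DNA binding belong, passed the line more widely than the Hox genes. The list was taken by class and holds Tgif1 and Tgif2 beside Pbx, Meis and Pknox genes. Of 10 measured TALE genes 8 (80.0%) were above the line on all arrays, beside 63.5% of all probe sets with 1 symbol. The median margin was 1.92 over the 10 genes. Meis1 averaged 8.22 ± 0.24 and Pbx3 averaged 9.0 ± 0.07 on the log2 scale, Pbx2 averaged 10.002 ± 0.06 and Pbx4 averaged 8.51 ± 0.02 (SD, n = 4 each). Meis3, Pknox1, Tgif1 and Tgif2 were also above, whereas Meis2 was below on every array (5.47 to 5.68) and Pknox2 passed on 2 arrays.

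Genes of both sides of the chromatin control of Hox genes were measured above the line. All 10 Trithorax-side genes were above the line, including Kmt2a, the methyltransferase known as Mll (mean 10.57 ± 0.25), its partner Men1 (9.71 ± 0.15), Psip1 (9.40 ± 0.08) and Dot1l (10.29 ± 0.16). All 12 measured Polycomb-side genes were above it too, among them Bmi1 (9.06 ± 0.12), Ring1 (8.46 ± 0.11), Rnf2 (10.30 ± 0.05) and Cbx2 (8.41 ± 0.15), each with SD over 4 arrays. Of the Cdx factors, which activate Hox genes in the embryo, Cdx1 was above on all arrays (7.56 to 7.78), Cdx2 on 1 and Cdx4 on none (4.07 to 4.27). Together 23 of 25 regulators were above the line, beside 63.5% of all probe sets with 1 symbol. All 23 were also above the 99th percentile line, beside 52.0%.

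**Figure D4:**
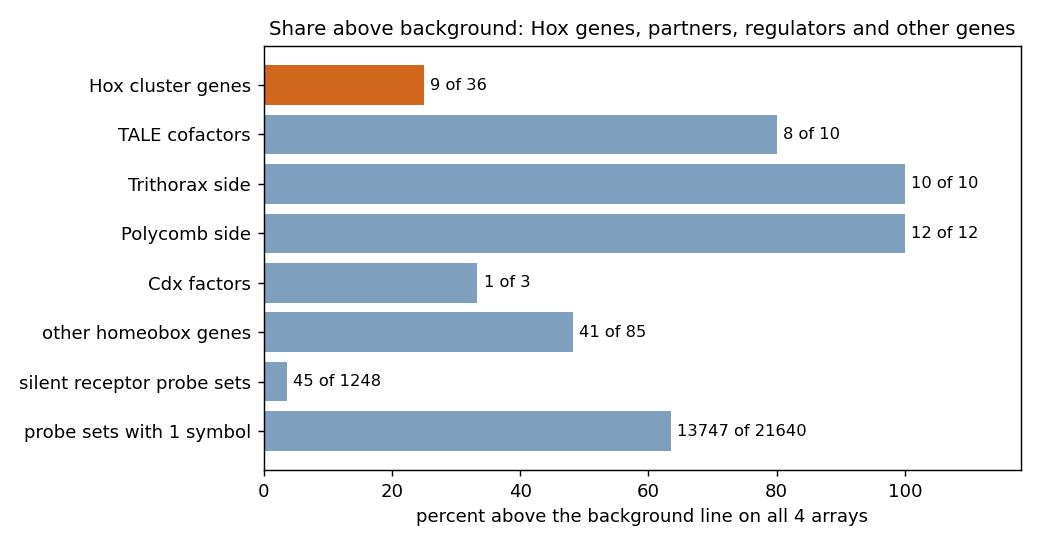
Percent of probe sets or genes above the background line on all 4 arrays (x axis), with the count beside each bar. Bars show Hox genes, TALE-class genes, and Trithorax-side, Polycomb-side and Cdx regulators. Further bars show other homeobox genes, silent receptor probe sets and all probe sets with 1 symbol. The bar of Hox genes, 9 of 36, is shorter than that of other homeobox genes, 41 of 85, and of all probe sets with 1 symbol, 13747 of 21640.

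Homeobox genes outside the clusters, most of them known from the development of other tissues, were above the line in 41 of 85 cases (48.2%). The 85, also used as a line above, were taken by symbol and include the non-coding genes Dlx1as, Irx3os and Six3os1. Of these, Irx3os was above on all arrays. Of the first 4 by symbol, Barhl1 was above on all arrays (7.28 to 7.50), Alx4 on 3, and Alx1 and Barhl2 on none. Hhex and Hlx, which are known in blood cells, had mean margins of 2.73 and 1.62. Other genes of the set had margins near those of the highest Hox genes (Hoxa7 1.34, Hoxb1 1.175). Among them were Nkx2-4 (1.29), Lhx4 (1.23), Emx1 (1.22) and Nkx2-5 (1.17), each above the 99th percentile line on 4 arrays. The 99th percentile line was passed by 13 of the 85, beside 4 of 36 Hox genes. The part of probe composition in the signal of homeobox genes was not tested.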

How the data were processed

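Each of 4 samples was hybridised to an Affymetrix Mouse Gene 1.0 ST array. The authors deposited 1 log2 intensity per probe set and array, and the submitters' processing notes name RMA. Not given in the sources used here: which arrays were normalized together, the genome build, and where the methods' filter on low expression was set. No probe set of the 34760 was dropped: 21640 have 1 gene symbol, 1321 several and 11799 none. Array medians were 7.31 to 7.35. Other arrays of the study were not analysed here.

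The line, the margin and the calls are as given above, with no pseudocount or filter. The number of arrays limits the precision. All 36 Hox symbols were found in the RefSeq gene table (GRCm38.p6), which gave order only, and 1 Hox gene is not reported here. Members and lists were chosen with earlier results of these data known. All Hox and TALE genes are named, and of other lists the first 4 with a probe set; other names were chosen after their values were seen. Where a gene has several probe sets, the one with the highest mean was used. The limma test (limma 3.58.1, R 4.3.3) was one-sided, with Benjamini-Hochberg adjustment over all probe sets, and was tested on simulated data. Python 3.11.15, pandas 2.3.3 and numpy 2.4.6 did the rest. Alternatives were other lines, 3 of 4 arrays, quantile, cyclic loess or median scaling, and each array left out.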

Additional observations from a re-analysis of the deposited data

Results flagged for a closer look

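For each of 93 named genes the array farthest from the other 3 was compared with the range of all 4, and 8 genes stood out. Chance flags about 1 in 20 groups, or 4.65 of 93. Of the 36 Hox genes 4 stood out, where chance gives 1.8. Hoxa6 was high on replicate 1, at 7.82 against 7.17 to 7.25 on the other 3 arrays. Hoxa13 was high on replicate 3 (6.34 against 6.12 to 6.14) and Hoxb13 low on it (5.89 against 6.03 to 6.05). Hoxc13 was low on replicate 4, at 5.61 against 5.99 to 6.00. These 3 posterior genes lay below the background line on all 4 arrays.

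Among cell type markers, Slc4a1 (8.52 against 10.69 to 10.97) and Alas2 (6.96 against 7.99 to 8.08), both of red cell precursors, were low on replicate 1. Pf4, a platelet gene, was low on replicate 4 (7.90 against 8.60 to 8.71), and Mcpt8, a basophil gene, on replicate 2 (9.15 against 9.28 to 9.31).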

How the results depend on the processing

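No paired analysis was possible because the 4 arrays form a single group. Over 16 alternatives the number of Hox genes above background was 0 to 14, and 21 of 36 genes were above under none. At the 99th percentile it was 4 (Hoxa 1, Hoxb 3, Hoxd 0, central 2, posterior 0, other homeobox genes 13), and the mean margins of Hoxb9 (-0.15), Hoxb2 (-0.44), Hoxd11 (-0.44) and Hoxa4 (-0.038) turned negative. At the array median it was also 4 (Hoxa 1, Hoxb 3, Hoxd 0, central 2, posterior 0, other homeobox genes 9), with -0.27 for Hoxb9, -0.57 for Hoxb2, -0.56 for Hoxd11 and -0.16 for Hoxa4. At the 90th percentile it was 14 (Hoxd 4, posterior 4, other homeobox genes 64). With vomeronasal and taste receptors alone, Hoxd had 3 genes and other homeobox genes 64. Counting 3 of 4 arrays, Hoxd had 2.

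With the keratin-associated, defensin and crystallin genes the counts were 0 for all Hox genes, for Hoxa, Hoxb and Hoxd, and for anterior, central and posterior genes, and 1 for other homeobox genes. The mean margins were -1.07 (Hoxb9), -0.49 (Hoxb4), -0.24 (Hoxb3), -1.36 (Hoxb2), -0.38 (Hoxb1), -1.35 (Hoxd11), -0.95 (Hoxa4), -0.76 (Hoxa6) and -0.21 (Hoxa7). With the other homeobox genes as the line, an alternative chosen after seeing the data, these 7 Hox counts were 0 and 3 other homeobox genes passed. The margins were -0.69 (Hoxb9), -0.11 (Hoxb4), -0.98 (Hoxb2), -0.0008 (Hoxb1), -0.98 (Hoxd11), -0.58 (Hoxa4) and -0.38 (Hoxa6). The cause of these differences was not tested.

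Quantile, cyclic loess and median scaling each gave the same 9 genes. With 1 array left out the count was 9 to 10: Hoxa5 joined without replicate 3 and Hoxd9 without replicate 4. The counts were then 3 to 4 for Hoxa, 5 for Hoxb, 0 for Hoxc and 1 to 2 for Hoxd. The median range over the arrays, in place of the SD, was 0.38. Choosing the lowest probe set of a gene changes nothing, since each Hox gene has 1. RMA values have no depth, and the height of the line limits what can be called.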
